A study of Mus musculus with 31 samples.

Results

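The places where meiosis breaks DNA were compared between hybrid male mice, CASTfXMOLm, that had a CAST/EiJ mother (CAST) and a MOLF/EiJ father (MOL) and both parental strains. The labels name no treatment and no engineered allele in these 3 groups, both parents are wild-derived inbred strains, and each group was represented by 1 library, so no difference between them has a replicate check. The members were the hotspots listed for the hybrid on chromosomes 1 to 19: 15524 of the 414683 hotspots in the 26 lists of the series. The CAST list held 14282 autosomal hotspots and the MOL list 14585. Frozen testis was fixed, DMC1-bound single-stranded DNA was recovered with an antibody and sequenced (single-stranded DNA sequencing, SSDS), and hotspots with a strength score were called per library. Neither the ages of the animals nor any pooling of them is given in the sources used here, and read depth is unknown. The series text states that a library was removed because it was mislabelled as a CAST by 13R cross. The sample it points to carries the label CAST here, so every CAST value assumes that this label is right. Of the strongest 1000 autosomal hotspots of the strain 13R, 1.0% were found in the CAST list. In the crosses with a 13R parent the share was 98.7% to 99.3%.

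In mouse meiosis, the protein PRDM9 binds DNA through an array of zinc fingers and methylates histones nearby, and the breaks that start recombination form around its binding sites. The recombinase DMC1 then coats the single-stranded ends, so DMC1-bound DNA marks where breaks were made. The zinc fingers differ between strains, which places hotspots at different sites in each strain, and an F1 hybrid carries the PRDM9 allele and the chromosomes of both parents. Breaks are repaired from the partner chromosome, so that binding sites favoured by a strain's own allele tend to be lost from its genome over generations.

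Each hybrid hotspot was assigned to 1 of 4 origin classes by whether a CAST or a MOL hotspot had its centre less than 400 bp away: CAST list only, MOL list only, both lists, or neither. A CASTfXMOLm hotspot centre fell in a promoter window, from 250 bases before to 50 bases after a gene start, for 38 of the 15524 hotspots (0.245%). Windows of 1 hotspot from each of 3 classes are printed to show the sequence under a hotspot centre. They are the strongest at a gene that is not a predicted one, chosen after their values were seen. The sequence is RefSeq's, in build GRCm38.p6, which is that of a C57Bl/6J mouse and not of CAST or MOL. It is given 5′ to 3′ on the plus strand with the 41 bases nearest the centre of the hybrid hotspot in capitals.
CAST list only, Adipoq, chr16:23146286-23146585: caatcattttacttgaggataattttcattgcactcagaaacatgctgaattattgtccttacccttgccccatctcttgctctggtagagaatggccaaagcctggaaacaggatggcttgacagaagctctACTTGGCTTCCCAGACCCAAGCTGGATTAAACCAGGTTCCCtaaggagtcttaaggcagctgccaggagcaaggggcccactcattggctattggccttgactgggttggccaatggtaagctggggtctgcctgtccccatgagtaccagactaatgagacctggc
MOL list only, Defb42, chr14:63046741-63047040: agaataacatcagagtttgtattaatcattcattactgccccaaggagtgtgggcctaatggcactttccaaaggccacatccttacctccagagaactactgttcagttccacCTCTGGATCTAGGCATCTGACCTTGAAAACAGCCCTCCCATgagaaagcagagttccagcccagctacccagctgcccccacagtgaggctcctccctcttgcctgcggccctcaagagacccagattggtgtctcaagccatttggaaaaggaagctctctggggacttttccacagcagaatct
Neither list, Nlrp3, chr11:59542436-59542735: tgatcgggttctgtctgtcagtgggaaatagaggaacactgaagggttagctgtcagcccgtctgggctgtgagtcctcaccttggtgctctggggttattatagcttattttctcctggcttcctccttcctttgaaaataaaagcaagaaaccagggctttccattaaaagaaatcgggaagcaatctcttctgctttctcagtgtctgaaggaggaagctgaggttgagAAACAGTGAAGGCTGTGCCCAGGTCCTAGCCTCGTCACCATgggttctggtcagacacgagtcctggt
The hotspot at Adipoq, which encodes the fat-cell hormone adiponectin, had a score of 78.8 and rank 486 in the hybrid, and rank 1053 in CAST. Though absent from the MOL list, it was listed in at least 1 other cross with a MOL parent as well as in other crosses of CAST. At Defb42, a beta-defensin gene, the hybrid hotspot had a score of 22.5 and rank 4064, against rank 576 in MOL. The hotspot at Nlrp3, an inflammasome sensor gene, had a score of 49.2 and rank 1386 in the hybrid, had no counterpart in either parental list, and was listed in other crosses with a CAST parent but in none of those with a MOL parent. The capitals held 53.7%, 51.2% and 56.1% G and C at Adipoq, Defb42 and Nlrp3. No motif was searched in these windows.

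A pair of signals that neither parent carried stood apart in the CASTfXMOLm list and bear on the hotspots in neither parental list. Of the strongest 1000 autosomal hotspots of C3H, a strain that is no parent of this cross, 23.4% were found in the hybrid, against 0.6% in CAST and 0.6% in MOL. In the 8 lists of the series with no B6 or C3H parent other than the hybrid, this share ran from 0.4% to 0.8%. The hybrid hotspots at these sites were weak, with a median strength percentile of 11.02 within the hybrid list, and the strongest decile of C3H hotspots was found at 17.6% against 1.38% of the next decile. Among hybrid hotspots in neither parental list, 8.39% lay at a C3H hotspot on the autosomes (262 of 3123), against 0.834% of those in the CAST list only and 0.800% of those in the MOL list only. Hotspots of B6 showed a smaller excess, with 3.3% of the strongest 1000 found in the hybrid, 0.9% in CAST and 1.0% in MOL. The B6 and C3H sites overlap, as 37.6% of the strongest 1000 of B6 were found in C3H. Hotspots of 13R showed no excess beyond the counting intervals. Values for the hybrid are given below with and without hotspots at C3H sites where these moved a result, a choice made after seeing the data, and the source of the signal was not tested.

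**Figure D1:**
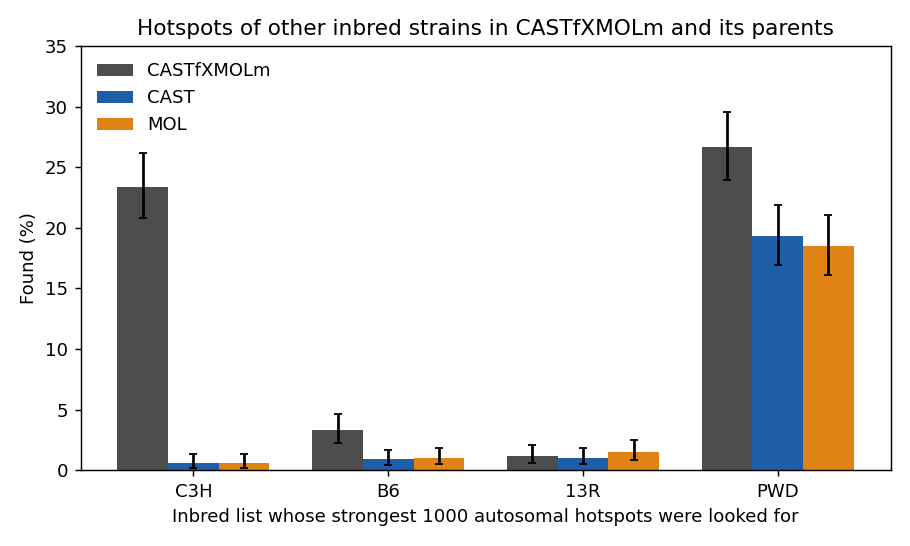
Share of the strongest 1000 autosomal hotspots of the inbred strains C3H, B6, 13R and PWD with a hotspot in CASTfXMOLm, CAST and MOL, with 95% Clopper-Pearson intervals that cover counting error only. C3H hotspots reach 23.4% in the hybrid and 0.6% in each parent, and PWD hotspots reach 26.7% in the hybrid, 19.3% in CAST and 18.5% in MOL.

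A run of hotspots covered the gene Mei1, which is required for meiotic break formation, on chromosome 15 (82070074 to 82126817). The hybrid had 16 hotspots inside it, 14 of them in neither parental list, with scores from 8.14 to 59.8. No other place on the autosomes held 5 or more consecutive hotspots in neither list with gaps of at most 10000 bp. Of the other 25 lists of the series, 10 had no hotspot inside Mei1, 12 had 1, and 3 had more: C3HfXCASTm with 8, MOLfX13Rm with 7 and C3HfX13Rm with 3. The run held 7.78% of the strength in neither list on chromosome 15. Whether this signal reflects breaks was not tested, and the class shares, rank differences and shares in other crosses recomputed without the hotspots inside Mei1 kept their direction.

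More CASTfXMOLm hotspots lay at CAST sites than at MOL sites, and 20.1% lay at neither. The CAST list alone accounted for 8036 hotspots (51.8%, 95% Clopper-Pearson interval 51.0 to 52.6, covering counting error only here and below). The MOL list alone accounted for 3999 (25.8%, 25.1 to 26.5), both lists for 366 (2.36%, 2.12 to 2.61) and neither list for 3123 (20.1%, 19.5 to 20.8). By summed strength, the score added over hotspots, the 4 classes held 49.9%, 25.3%, 3.57% and 21.1%, close to their shares by number except that hotspots in both lists held more. The share in neither list was 18.9% without hotspots at C3H sites. It was 32.6% when matching required a reciprocal overlap of 50% of the intervals, and 31.0% when each list was reduced to its strongest 5000 hotspots.

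The parental balance was similar on every autosome. Of the hotspots at 1 parental list only, CAST supplied 66.8% (65.9 to 67.6), and 66.3% of their strength. Chromosome 8 had the lowest CAST share, 62.4%, and chromosome 18 the highest, 70.7%, and it was above 50% on 19 of 19 autosomes. Hotspots in neither list made up between 18.005% of hotspots on chromosome 11 and 23.8% on chromosome 15, and between 16.4% of strength on chromosome 18 and 28.7% on chromosome 15, the chromosome of Mei1.

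The strongest hybrid hotspots came from all sources, and CAST did not lead among the strongest 100. Those 100 comprised 27 at CAST sites only, 31 at MOL sites only, 2 at both and 40 at neither. CAST thus supplied 46.6% of the hotspots at 1 parental list (33.3 to 60.1) in the strongest 100, 62.4% (58.7 to 66.1) in the strongest 1000 and 68.5% (66.97 to 69.96) in the strongest 5000. Hotspots in neither list formed 40% of the strongest 100, 26.7% of the strongest 1000 and 19.8% of the strongest 5000. They were also frequent among the weakest: by deciles of hybrid strength their share was 24.3% in the strongest decile, 15.3% in the fifth and 29.8% in the weakest. Without hotspots at C3H sites these shares were 24.3%, 15.4% and 23.9%. Hotspots in both lists were scarcer at lower strength, at 4.44% of the strongest decile and 0.515% of the weakest.

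**Figure D2:**
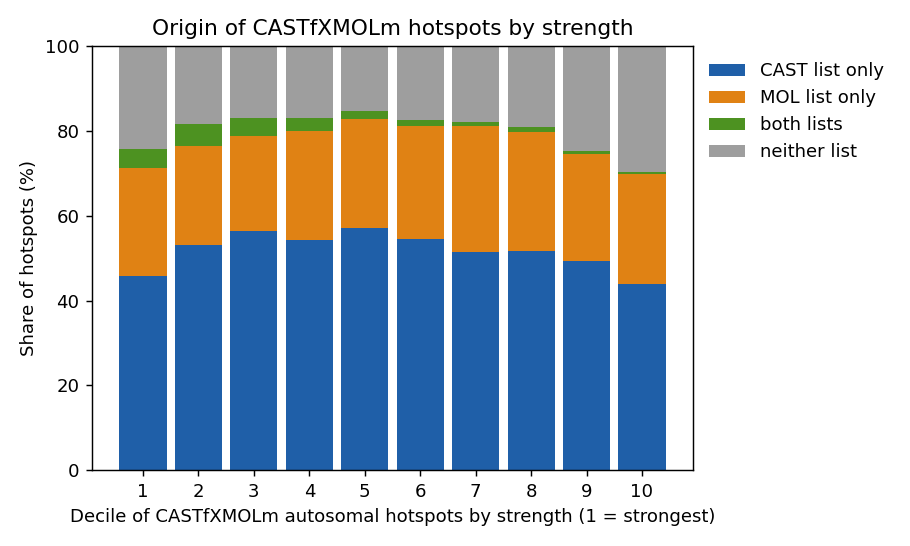
Origin of the 15524 autosomal CASTfXMOLm hotspots by decile of strength, with the strongest decile at the left, as a share of the hotspots in each decile. Hotspots in neither parental list form 24.3% of the strongest decile, 15.3% of the fifth and 29.8% of the weakest, the last being 23.9% without hotspots at C3H sites.

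Ranks within the hybrid differed little between the classes from a single parent. The median strength percentile, on which 100 is the strongest, was 51.4 for CAST list only, 47.6 for MOL list only, 75.04 for both lists and 45.6 for neither. CAST-only hotspots thus lay 3.81 percentile points above MOL-only ones. This order turned, to -11.7 points with reciprocal overlap and to -2.12 with the strongest 5000 hotspots of each list, so no order of the 2 parents is given. Hotspots in neither list differed from those in a parental list by -5.43 points, which was -1.43 without hotspots at C3H sites, -20.3 with reciprocal overlap and 9.62, a reversed sign, with the strongest 5000 of each list.

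The single strongest hybrid hotspots kept their place from CAST. Rank 1, with a score of 289.8, lay on chromosome 3 (9026453 to 9030884), 23275 bp from Tpd52, and was also rank 1 in CAST. It was listed in all 4 other crosses with a CAST parent, at ranks 2 to 6. Rank 2, at a score of 256, lay on chromosome 4 (32571252 to 32576503) inside Bach2, a transcriptional regulator of B cells, and was rank 2 in CAST and rank 1 to 7 in the other CAST crosses. Neither place had a MOL hotspot. That inside Bach2 was also listed in crosses of PWD with no CAST or MOL parent: PWDfX13Rm (rank 139), PWDfXC3Hm (199), B6fXPWDm (207) and PWDfXB6m (360). Here and below, "inside" refers to the span of a protein-coding gene; whether the place is exonic or intronic was not determined.

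Other strong CAST-derived hotspots differed in their rank in CAST. Rank 10, inside the predicted gene Gm40755 on chromosome 10 (108327594 to 108332237), was rank 925 in CAST and ranks 33 to 157 in the other 4 CAST crosses. The hybrid's rank 12, 13960 bp from Bmp4, a growth factor gene of the BMP family, on chromosome 14 (46367156 to 46371975), was rank 8 in CAST.

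The 5 strongest MOL-derived hotspots of the hybrid ranked between 892 and 11602 in the MOL list. The first, rank 9 in the hybrid with a score of 197, lay on chromosome 3 (21903588 to 21908457), 170231 bp from Tbl1xr1, which encodes a subunit of a nuclear corepressor complex. It was rank 11602 in MOL, yet rank 47 to 114 in 4 other crosses with a MOL parent. Rank 16, 534575 bp from the cadherin gene Cdh18 on chromosome 15 (24009883 to 24014250), was rank 9388 in MOL, rank 27 in B6fXMOLm, rank 17 in MOLfXB6m, rank 393 in C3HfXMOLm and rank 530 in MOLfX13Rm, and was not listed in PWDfXMOLm. The other 3 had lower ranks in the other MOL crosses. Rank 13 lay inside Klf12, a Krüppel-like transcription factor gene, on chromosome 14 (99937256 to 99941477), and was rank 892 in MOL and between rank 2166 and rank 8130 in the other 5 MOL crosses. Rank 14 lay 130556 bp from Tac1, the substance P precursor gene, on chromosome 6 (7422272 to 7426739); it was rank 4149 in MOL and rank 5094 or weaker in the other MOL crosses. Rank 15 lay 146154 bp from the homeobox gene Six2 on chromosome 17 (85832037 to 85836780); it was rank 1140 in MOL and between rank 1129 and rank 4527 in the other MOL crosses. The places near Cdh18, Tac1 and Six2 and inside Klf12 were also listed in PWDfXCASTm, a cross with no MOL parent. That near Cdh18 was listed in further crosses of PWD with no MOL parent: PWDfXB6m (rank 541), B6fXPWDm (783), PWDfXC3Hm (4652) and PWDfX13Rm (5400).

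Hotspots found in both lists were the strongest class by median and had a higher median percentile in the hybrid than in CAST or MOL. Their median percentile was 75.04 in the hybrid, 57.3 in CAST and 58.0 in MOL, and 115 of the 366 ranked above both parents, by percentile, against 40 below both. Across the 366, Spearman's rho of hybrid strength was 0.621 with CAST and 0.217 with MOL; hotspots share a library and are not replicates. PWD, a wild-derived strain outside this cross, also had a hotspot at 158 of them (43.2%), against 13.7% of CAST-only, 14.1% of MOL-only and 8.90% of neither-list hotspots. The strongest, rank 45, lay 9213 bp from Fgf2, a fibroblast growth factor gene, on chromosome 3 (37336982 to 37341547), and was rank 2624 in CAST and rank 8 in MOL. Rank 99, inside the formin gene Fmnl2 on chromosome 2 (53095508 to 53099721), was rank 7779 in CAST and 7355 in MOL, but rank 1802 or stronger in all 9 other crosses with a CAST or MOL parent. Rank 127, 8946 bp from P4ha2, a collagen prolyl hydroxylase subunit gene, was rank 78 in CAST and 41 in MOL. This place was also rank 9 in 13R, and it was rank 50 in B6fXPWDm and rank 89 in PWDfX13Rm, crosses with no CAST or MOL parent. Among the other MOL crosses only B6fXMOLm listed it. Rank 181, inside Cadps2, was rank 29 in CAST and 9948 in MOL, and rank 190, near Man2b2, was rank 11944 in CAST and 8052 in MOL. A place listed in both parents was kept more often: 92.1% of CAST hotspots with a MOL match were found in the hybrid (350 of 380), against 57.9% of those with none, and 91.3% of MOL hotspots with a CAST match, against 28.3% of those with none.

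Seen from the parents, nearly all strong CAST hotspots were listed in the hybrid, while MOL hotspots were found less fully. Of the strongest 5000 of CAST, 97.5% (97.0 to 97.9) had a hotspot in the hybrid, and of the strongest 5000 of MOL 64.8% (63.5 to 66.2). The strongest 1000 were nearly level, at 98.4% (97.4 to 99.1) for CAST and 96.1% (94.7 to 97.2) for MOL, so most of the gap lay below them. By deciles of parental strength, CAST recovery in the hybrid was 98.4%, 98.7%, 97.4%, 88.5% and 75.1% in the 5 strongest deciles, and MOL recovery was 94.6%, 70.6%, 44.6%, 26.5% and 18.4%. In the weakest decile it was 11.7% for CAST and 6.58% for MOL. With reciprocal overlap as the match, MOL recovery of the strongest 5000 was 38.3%; hotspot widths differed, with medians of 1924 bp in the hybrid, 1880 bp in CAST and 2234 bp in MOL.

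**Figure D3:**
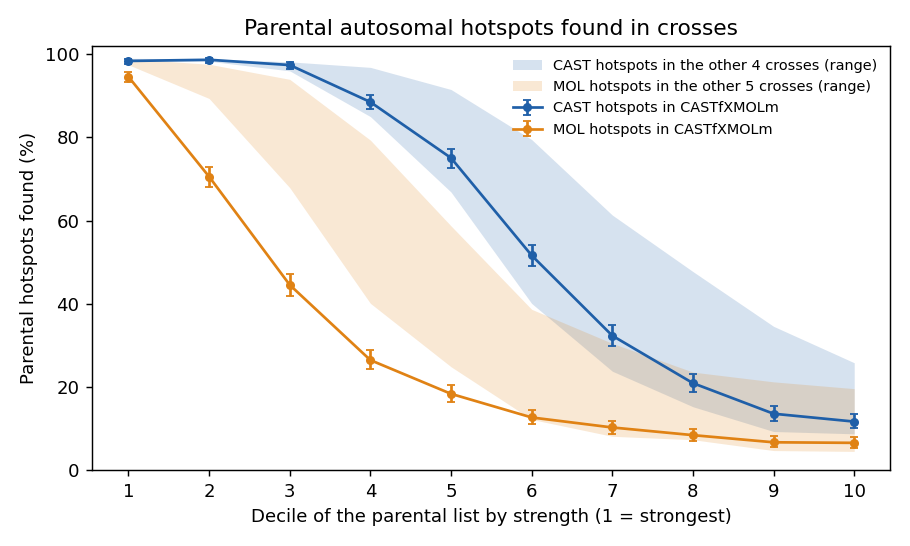
Share of parental autosomal hotspots found in CASTfXMOLm (points, with 95% Clopper-Pearson intervals) by decile of parental strength, and the range over the other 4 crosses with a CAST parent and the other 5 with a MOL parent (bands). CAST recovery runs from 98.4% in the strongest decile to 11.7% in the weakest inside its band, and the MOL curve runs from 94.6% to 6.58%, below its band in the 5 strongest deciles.

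MOL hotspots were found in this cross less often than in any other cross with a MOL parent. Of the strongest 5000 of MOL, 64.8% were found in CASTfXMOLm, against 85.02% in B6fXMOLm, 93.7% in C3HfXMOLm, 80.0% in MOLfX13Rm, 94.96% in MOLfXB6m and 92.2% in PWDfXMOLm. The mean of these 5 was 89.2% ± 6.41 (SD, n = 5), and the hybrid differed from it by -24.3 percentage points (two-sided exact permutation p = 0.167, the smallest that 1 against 5 crosses allows, 0.583 after Benjamini-Hochberg adjustment over 7 such tests). CAST recovery in the hybrid, 97.5%, lay within the 96.9% to 98.3% of the other 4 CAST crosses (mean 97.8%, exact permutation p = 0.8, 0.947 adjusted). These tests treat crosses as independent although some have a parental strain in common.

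The strength of a recovered hotspot in the hybrid followed its strength in CAST more closely than in MOL. Across the 8402 CAST hotspots found in the hybrid, Spearman's rho between strength in the hybrid and in CAST was 0.689, and across the 4365 MOL hotspots it was 0.260 with MOL. The corresponding values were 0.611 to 0.664 in the other 4 CAST crosses and 0.468 to 0.631 in the other 5 MOL crosses. Both hybrid values lay outside these ranges, but exact permutation tests of 1 cross against the others gave p = 0.4 for CAST (0.933 adjusted) and p = 0.167 for MOL (0.583 adjusted). The strongest decile of CAST hotspots had a median percentile of 87.0 in the hybrid and that of MOL 68.2. Below it, the CAST medians fell with each decile as far as 21.3 in the eighth. Recovered MOL hotspots had medians of 37.5, 36.3 and 34.4 in the second, the third and the fourth deciles and of 56.4, 54.7 and 53.0 in the 3 weakest. Few weak MOL hotspots were found, and those found in the 4 weakest deciles had medians above percentile 50 of the hybrid list. For scale, each of the 9 weaker deciles of C3H hotspots was found in the hybrid at 0.582% to 1.38%, and the weakest decile of MOL at 6.58%.

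**Figure D4:**
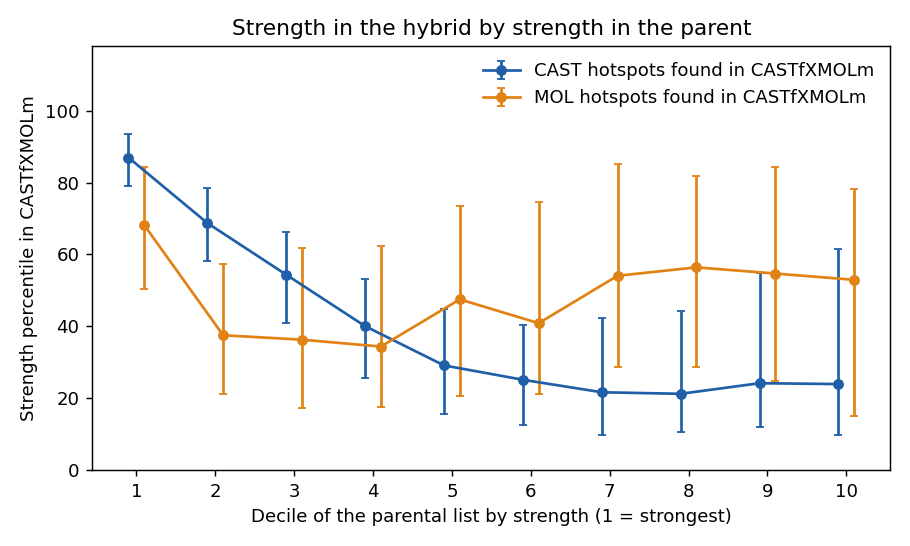
Strength percentile in CASTfXMOLm (median, with bars to the lower and upper quartiles over hotspots of 1 library) of CAST and MOL hotspots found in it, by decile of parental strength. The CAST medians run from 87.0 to 24.0, and the MOL medians from 68.2 through 34.4 in the fourth decile to 53.0 in the weakest.

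Part of the strong MOL-derived hotspots of the hybrid were weak in MOL. Among the strongest 1000 hybrid hotspots, the 429 at CAST sites only had a median percentile of 97.4 in CAST, and 32 of them (7.46%, 5.16 to 10.4) lay below percentile 50 there. The 258 at MOL sites only had a median percentile of 89.2 in MOL, and 50 of them (19.4%, 14.7 to 24.7) lay below percentile 50. All 32 such CAST hotspots were listed in another CAST cross with no MOL parent, and 43 of the 50 such MOL hotspots in another MOL cross with no CAST parent. Most hotspots of these classes were so listed at any strength. Of all CAST-only hotspots, 87.5% were in other CAST crosses only and 10.9% in both kinds of cross. Of all MOL-only hotspots, 83.0% were in other MOL crosses only and 14.0% in both kinds. The place near Tbl1xr1 described above is among those 50 MOL hotspots. Over all hybrid strengths, the 5 weakest deciles of MOL supplied 185, 150, 123, 98 and 96 of the 4365 MOL hotspots found in the hybrid. Those of CAST supplied 738, 462, 299, 194 and 167 of the 8402 CAST hotspots found.

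The strongest parental hotspots themselves fared unequally. In CAST, ranks 1 and 2 (near Tpd52 and inside Bach2) kept their ranks, rank 4, 6637 bp from the spliceosome gene Plrg1 on chromosome 3, was rank 110 in the hybrid, and rank 5, inside Lactb2 on chromosome 1, was rank 23. Rank 3 of CAST, on chromosome 15 (99734993 to 99736696), 252 bp from an end of the ceramide synthase gene Cers5, had no hotspot in the hybrid and was missing from 3 of the 4 other CAST crosses, but was rank 2 in C3HfXCASTm. Of the 5 strongest in MOL, all were found in the hybrid, with rank 1 (127374 bp from Mex3c, chromosome 18) at hybrid rank 371, rank 2 (inside the complement gene C7, chromosome 15) at 1314 and rank 3 (far from Adgrl4, chromosome 3) at 318. Rank 4, inside the Hippo pathway kinase gene Lats2 on chromosome 14, was at hybrid rank 18, and rank 5, 4970 bp from the glycosylation gene Alg10b on chromosome 15, at 4160. In the other MOL crosses the Alg10b place was at ranks 478 to 2156, so it ranked lowest in CASTfXMOLm.

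After Cers5, the strongest CAST hotspots with no hybrid hotspot lay inside Arfgef1 (rank 96 in CAST), Secisbp2 (147), Afg1l (414) and Kcnmb2 (429). Those inside Arfgef1 and Secisbp2 were listed in no other cross with a CAST parent, and those inside Afg1l and Kcnmb2 in all 4. The strongest MOL hotspots with no hybrid hotspot lay inside Zfp106 (rank 63 in MOL), Cacnb2 (91) and Zfc3h1 (126) and near Tmem38b (191) and Scg2 (267). Those inside Cacnb2 and Zfc3h1 were listed in no other MOL cross, and that near Tmem38b in all 5. Absence from the hybrid therefore included places seen in only 1 library and places kept in every other cross of the parent.

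Hotspots in neither parental list were set beside the other crosses, which were not used to choose them. Of the 3123, 1224 (39.2%) were listed in another cross with a CAST parent and in none with a MOL parent, 649 (20.8%) in another MOL cross only, 509 (16.3%) in both kinds and 741 (23.7%) in none. These groups held 45.2%, 23.2%, 15.3% and 16.4% of the strength of the class, with median percentiles of 55.4, 49.4, 25.2 and 35.8. B6, C3H and PWD each had a CAST cross and a MOL cross, so a hotspot at a site of these strains can be listed in both kinds. Of the 509 in both kinds, 365 lay at a hotspot of another inbred strain or the knockout. Without hotspots at sites of another inbred strain or the knockout, the medians were 54.8, 50.4, 66.5 and 35.9, so that hotspots in both kinds of cross had the highest median in place of the lowest. Of those in 1 kind of cross only, 65.3% (63.1 to 67.5) were in CAST crosses, near the CAST share of 66.8% among hotspots at 1 parental list. With reciprocal overlap as the match it was 43.5%. The share also depends on the lists at hand. PWDfXCASTm, the largest cross list with 18270 autosomal hotspots, alone listed 1299 of the 3123 (41.6%). Each remaining CAST cross listed 27.2% to 31.5% of the 3123, and each other MOL cross 17.1% to 27.3%. All 4 other CAST crosses listed 554 of the 3123, and all 5 other MOL crosses 235. For scale, 87.5% of hybrid hotspots in the CAST list only were found in other CAST crosses and no MOL cross, and 83.02% of those in the MOL list only in MOL crosses and no CAST cross.

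The strongest hotspots in neither list differed in where else they were seen. Rank 4 in the hybrid, on chromosome 3 (27414637 to 27418944) inside Fndc3b, 655 bp from an end of the gene, had a score of 214 and was listed in all 4 other CAST crosses, at ranks 7 to 38, and at rank 3094 in PWD. Rank 6, inside Elapor2 on chromosome 5 (9445598 to 9450627), was in all 4 other CAST crosses at ranks 98 to 831, was rank 443 in the MOL cross PWDfXMOLm and was rank 987 in PWD. Rank 8, inside Pxk, which encodes a PX-domain kinase-like protein, on chromosome 14 (8157599 to 8161800), was in 2 other MOL crosses and 1 other CAST cross, at rank 195 in C3HfXMOLm. The Pxk place was also listed in crosses of PWD with no CAST or MOL parent: B6fXPWDm (rank 2421), PWDfXB6m (2483) and PWDfX13Rm (4391). Rank 3, on chromosome 3 (38228104 to 38232831), 218792 bp from the ankyrin repeat gene Ankrd50, was seen in C3HfXMOLm at rank 1029 and in PWDfXCASTm at rank 16112. Rank 7, on chromosome 17 (83046685 to 83050674), 166604 bp from the secreted kinase gene Pkdcc, had a score of 207 in the hybrid and was in none of the other 25 lists. Of the 40 hotspots in neither list among the strongest 100, 21 were in CAST crosses only, 10 in MOL crosses only, 7 in both and 2 in none.

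Some of these hotspots lay at hotspots of other inbred strains. PWD had a hotspot at 278 of the 3123 (8.90%), with a median percentile of 62.3 in the hybrid, which was a smaller share than the 13.7% of CAST-only and 14.1% of MOL-only hotspots. C3H had one at 262 (8.39%), with a median percentile of 11.2 in the hybrid. B6 had one at 117 (3.75%), against 0.821% of CAST-only and 0.9502% of MOL-only hotspots. For 13R the shares were 0.768% of neither-list, 0.535% of CAST-only and 0.925% of MOL-only hotspots. For the Prdm9 knockout, in which breaks form away from PRDM9 sites, they were 0.897%, 0.809% and 0.850%. Leaving out hotspots at any of these lists, 2533 remained, of which 1110 were in CAST crosses only, 566 in MOL crosses only, 144 in both and 713 in none, so that CAST crosses held 66.2% (63.9 to 68.5) of those in 1 kind only. The nearest hotspot of a parent was a median of 22289 bp away, with 6.82% within 1000 bp and 30.0% within 10000 bp.

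Against the other crosses of the series, the share of hotspots in neither list lay in the middle of the range. It was 20.1% in CASTfXMOLm, 12th of 19 crosses, against a mean of 17.96% ± 9.97 (SD, n = 18) and a range of 1.60% to 31.9% in the others (two-sided exact permutation p = 0.895, where 0.0526 is the smallest possible, and 0.947 adjusted). By strength it was 21.1% in the hybrid and 20.1% on average in the others (exact permutation p = 0.947, also after adjustment). Among the strongest 100, 40 were in neither list in the hybrid and 31.2 on average in the others (exact permutation p = 0.684, 0.947 adjusted). In the 2 other crosses between wild-derived strains it was 23.5% in PWDfXCASTm and 18.2% in PWDfXMOLm. Both of those had more hotspots in both parental lists, 8.71% and 11.4%, than the 2.36% of CASTfXMOLm.

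The X chromosome of these males came from the CAST mother, and origin was compared there with the autosomes. On X, 395 of 772 hotspots lay in the CAST list only (51.2%), 201 in the MOL list only (26.0%), 26 in both (3.37%) and 150 in neither (19.4%, 16.7 to 22.4). The shares by number thus resembled those of the autosomes, but hotspots in neither list held 8.16% of X strength, against 21.1% on the autosomes. Of the 150, 93 lay at a C3H hotspot (62.0%), against 8.39% on the autosomes. Without hotspots at C3H sites the share in neither list was 8.60% on X (6.58 to 10.995, 57 of 663) and 18.9% on the autosomes (18.3 to 19.5). Without hotspots at any other inbred or knockout site it was 7.88% on X (5.72 to 10.5, 41 of 520) and 19.8% on the autosomes (19.1 to 20.5). The X share was 40.8% with reciprocal overlap and 6.32% with the strongest 5000 of each list.

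The X hotspots in neither list were seen in other MOL crosses more often than in other CAST crosses. Of the 41 at no other inbred or knockout site, 6 were in other CAST crosses only, 15 in other MOL crosses only, 1 in both and 19 in none. CAST crosses thus held 28.6% (11.3 to 52.2) of those in 1 kind of cross on X, against 66.2% (63.9 to 68.5) on the autosomes. With hotspots at other inbred sites included the counts were 8 in CAST crosses only and 31 in MOL crosses only. The intervals on X and on the autosomes did not overlap, but they cover counting error in 1 library only. The comparison is also not like for like, since males take their X from the mother. Among the other CAST crosses only CASTfXB6m had a CAST mother, and among the other MOL crosses MOLfX13Rm and MOLfXB6m had a MOL mother. The other CAST crosses listed 529 to 806 X hotspots each and the other MOL crosses 562 to 988.

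**Figure D5:**
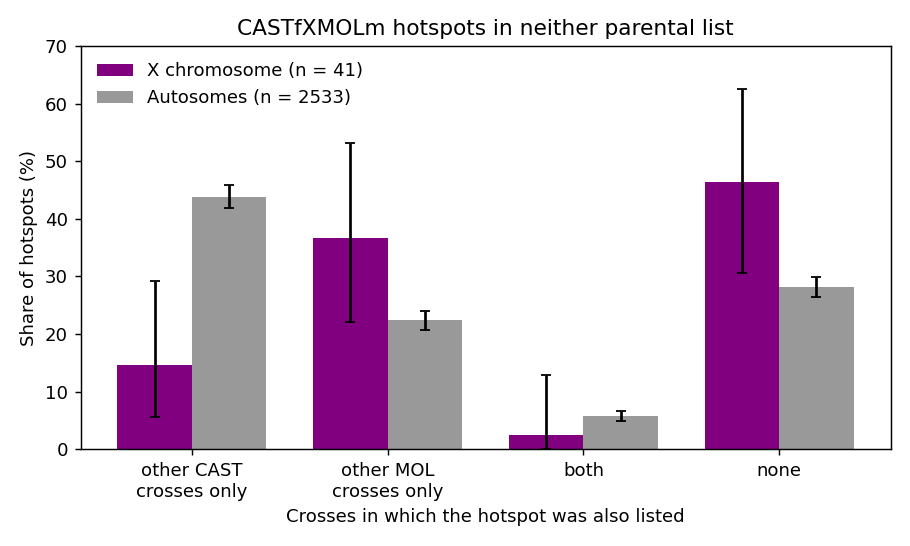
Hotspots of CASTfXMOLm in neither parental list and at no hotspot of another inbred strain or the knockout, on X (41) and on the autosomes (2533), by the other crosses that also listed them, as a share with 95% Clopper-Pearson intervals. On X, 15 of 41 were in MOL crosses only and 6 in CAST crosses only, and on the autosomes 566 and 1110 of 2533.

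Among X hotspots at CAST sites only, the strongest lay inside Gla, the alpha-galactosidase gene, with a score of 526, and next came places near 4930402K13Rik (487) and inside Morc4 (347); all 3 were in the 4 other CAST crosses and in no MOL cross. At MOL sites only they lay inside Adgrg4 (375), Gm6377 (334) and Gm14569 (332), all in the 5 other MOL crosses. Those inside Adgrg4 and Gm14569 were also listed in the CAST cross PWDfXCASTm, and that inside Adgrg4 in PWD. The strongest at both lay 202830 bp from Grpr, a bombesin-family receptor gene, at a score of 441. In neither list they lay near Ptchd1 (318), 4933402E13Rik (219) and Pdk3 (182), each in 3 other MOL crosses and each also in PWD. That near Ptchd1 was also in PWDfXCASTm and in crosses of PWD with no CAST or MOL parent, and that near 4933402E13Rik in PWDfXC3Hm. Recovery on X was 54.3% of CAST and 21.5% of MOL hotspots, against 58.8% and 29.9% on the autosomes.

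On Y, which came from the MOL father, the hybrid had 100 hotspots, against 11 in CAST and 127 in MOL. Of the 100, 44 lay in the MOL list only, 1 in the CAST list only, 1 in both and 54 in neither, and the 44 held 86.9% of Y strength. The strongest Y score was 1763 in the hybrid, 78.8 in CAST and 2329 in MOL, and scores are not comparable between lists. Y sequence is repetitive, and the treatment of reads that match several places is not given in the sources used here.

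Position relative to genes differed little between the classes. The hotspot centre lay inside a protein-coding gene for 53.3% of CAST-only, 52.6% of MOL-only, 56.3% of both-list and 51.3% of neither-list hotspots, and within 1000 bp of a gene end for 3.26%, 2.88%, 3.01% and 3.39%. Hotspots in neither list that no other CAST or MOL cross listed were the least often inside a gene, at 46.7% (43.1 to 50.4). The last 10 Mb of a chromosome held 9.21% of CAST-only, 8.15% of MOL-only, 7.10% of both-list and 9.70% of neither-list hotspots. Of 20665 autosomal protein-coding genes, 4859 (23.5%) held a hotspot of the hybrid. The most were in Auts2, with 18 (10 CAST only, 4 MOL only, 1 both and 3 neither), in the synaptic scaffold gene Dlg2 and in Mei1, with 16 each, and in Nrg1, the neuregulin gene, with 15. These counts are not adjusted for gene length, which was 1106 kb for Auts2, 1973 kb for Dlg2, 1084 kb for Nrg1 and 56.7 kb for Mei1.

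A list of meiosis genes and places known for recombination were looked at by name. Of 46 meiosis genes found in the annotation, 3 (6.52%, 1.37 to 17.9) had a hybrid hotspot within 1000 bp of an end, against 522 of 20665 (2.53%) for all genes. Among them were Sycp3, a synaptonemal complex gene, with a hotspot in both parental lists at rank 4955, and Mei1, with one in neither list at rank 10123. The hotspot at Mei1 belongs to the run described above, for which it was not tested whether the signal reflects breaks. Olfactory receptor genes had one at 16 of 1104 (1.45%). At Psmb9, an immunoproteasome gene beside a long-studied recombination hotspot of the major histocompatibility complex, the hybrid had a hotspot at rank 899, 1827 bp from the gene, which was rank 152 in CAST, was in all 4 other CAST crosses and had no MOL counterpart. Near H2-Eb1, closest to H2-Eb2, the hybrid hotspot was at rank 11863 and the CAST one at 7066, and near the homeobox gene Hlx they were at ranks 2519 and 1803, again with none in MOL. The span of Esrrg, an orphan nuclear receptor gene, held 7 hotspots in the hybrid, 10 in CAST and 8 in MOL. The strongest of the 7 was rank 557 in the hybrid and 158 in CAST, and a single one, at rank 3034, was in both parental lists, at 1625 in CAST and 1576 in MOL.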

How the data were processed

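Each of 26 lists holds hotspots called in 1 library, each with its position and a strength score, as the authors deposited them. The submitters' processing notes name CASAVA 1.8, MACS2 2.0.10 and build mm10. Neither filters nor the normalization of the score nor read depth is given in the sources used here. Of the scores, 104 lie below 0, 10 of them in CASTfXMOLm, so the deposited score was compared within lists alone: its rank, percentile or part of the sum. Lists were grouped by the maternal and paternal strains in the labels. Hotspots were matched when centres lay less than 400 bp apart, and each was assigned to its nearest match, with Python 3.11.15, numpy 2.4.6, pandas 2.3.3 and scipy 1.17.1; the assignment was tested on simulated data. Starts are 1-based. Clopper-Pearson intervals are at the 95% level. Crosses were compared by two-sided exact permutation tests. Genes and promoter windows came from RefSeq tables of GRCm38.p6. Named hotspots were the 10 strongest of the hybrid, the 5 strongest of each class and parent, the 5 strongest of each parent not found in the hybrid, the 3 strongest per class on X, and those no more than 10000 bp from Esrrg, Hlx, H2-Eb1 or Psmb9. The members and lists were chosen with earlier results of these data known. Motifs at hotspot centres were not analysed here. The 5 input samples were not used here. A pair of hotspots that these rules name is not reported here.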

Additional observations from a re-analysis of the deposited data

Results flagged for a closer look

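The following signals in CASTfXMOLm were above the level in at least 1 parental list; those at C3H sites and inside Mei1 include hotspots of the class in neither list, and Y is outside the autosomal comparison. Of the strongest 1000 hotspots of C3H, 23.4% were found in CASTfXMOLm, 0.6% in CAST and 0.6% in MOL. Inside Mei1 the hybrid list had 16 hotspots, while 22 of the other 25 lists had 1 or none. On Y it had 100 hotspots, against 11 in CAST, though MOL, the strain of the father, had 127. No cause of these signals was tested.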

How the results depend on the processing

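Of 64 values recomputed under alternatives for 10 results, 30 were counted as unchanged, 30 moved past their counting interval or spread and 4 changed sign. Unchanged meant inside that interval or spread, and the share of strength was given the interval width of the share by number. The excess of the neither share over other crosses has no interval. It counted as unchanged whenever it kept its sign, because its exact permutation p cannot fall below 0.0526. The CAST-only minus MOL-only percentile difference (3.81) became -11.7 with reciprocal overlap and -2.12 with the strongest 5000 hotspots of each list. The neither-list minus parental difference (-5.43) was -12.6 with a 200 bp window, -20.3 with reciprocal overlap, 9.62 with the strongest 5000 and -1.43 without C3H sites. The excess of the neither share over other crosses (2.16 points) became -1.03 with the strongest 5000. With 200 bp, 1000 bp, reciprocal overlap and the strongest 5000, the neither share was 25.5%, 18.7%, 32.6% and 31.0%, its strength 24.5%, 20.1%, 28.5% and 34.1%, and it was 18.9% without C3H sites. The CAST share at 1 parental list was 68.0% with 200 bp, 75.8% with reciprocal overlap and 70.4% with the strongest 5000, and that of neither-list hotspots in 1 kind of cross was 61.8%, 43.5% and 61.9%. Recovery with 200 bp, 1000 bp and reciprocal overlap was 95.2%, 98.3% and 96.1% for CAST and 59.0%, 66.5% and 38.3% for MOL; for the strongest 1000 it was 98.4% and 96.1%. The X share in neither list was 24.1% with 200 bp, 40.8% with reciprocal overlap, 6.32% with the strongest 5000 and 8.60% without C3H sites. Leaving out the hotspots inside Mei1 moved no value past its interval or spread. The cause was not tested. No paired analysis was possible because each genotype had 1 library. Depth is unknown, so a hotspot missing from a list may lie under its detection limit.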
